A study of Rattus norvegicus with 9 samples.

Results

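Claudins are membrane-spanning proteins of the tight junction that set which ions and how much water pass between epithelial cells. Transcript levels were followed for 10 of them, Cldn1, Cldn2, Cldn3, Cldn4, Cldn6, Cldn7, Cldn8, Cldn9, Cldn10 and Cldn14, out of 19367 genes in the kidney table. They were taken by symbol, leaving out Cldn5, which marks endothelium, and the magnesium and calcium pore pair Cldn16 and Cldn19. The samples were 3 kidney libraries from untreated Wistar-Kyoto rats (WKY, normotensive), 3 from untreated spontaneously hypertensive rats (SHR, an inbred hypertensive strain) and 3 from SHR given dapagliflozin. Dapagliflozin blocks the glucose carrier SGLT2 of the proximal tubule; rats entered at 3 months of age, and oral dosing at 10 mg/kg each day lasted 8 weeks. The untreated groups received distilled water per the protocol, although another label field reads saline. All 9 samples carry Wistar-Kyoto in the strain field, and the titles were therefore used to assign groups. No cell type was purified. The labels name 3 rats per group without tying each library to an animal, so p-values measure the spread between these libraries, which may be technical.

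Each part of the nephron carries its own claudins. In the leaky proximal tubule Cldn2 forms a pore for sodium and water, and an isoform of Cldn10 forms an anion pore; another Cldn10 isoform makes the sodium pore of the thick ascending limb, where Cldn14 opposes Cldn16 downstream of the calcium-sensing receptor. The tight distal nephron and collecting duct carry Cldn3, Cldn4, Cldn7 and Cldn8, of which Cldn8 brings Cldn4 to the junction, where they shape chloride passage. Cldn1 is found in the parietal cells of Bowman's capsule. Cldn6 and Cldn9 are known as claudins of the immature kidney that are low in the adult.

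Levels are given as FPKM, which scales fragments to transcript length and to the reads mapped in a library, so that different genes can be compared. The FPKM of a library summed to between 563643 and 589838; read totals are unknown, and relative depths estimated from the smallest values lay between 0.981 and 1.03. Differences are on the log2(FPKM + 1) scale with limma's test across the 13127 genes that reached 1 FPKM in at least 3 libraries, and a gene was called at a Benjamini-Hochberg adjusted p below 0.05. Of these genes 2.96% were called between SHR and WKY, 0.0% (0 genes, with 1997 at an unadjusted p below 0.05) between treated and untreated SHR, and 22.9% between treated SHR and WKY. The last contrast joins strain and drug and shares its groups with the others. The median of all genes in it was 0.11 as deposited, 0.01 after quantile normalization and -0.01 after median-of-ratios scaling, so a small part of any rise depends on the scaling. Markers of the collecting duct, intercalated cells, distal convoluted tubule and proximal tubule also differed between the groups, and their values are given with the segment lists. In whole kidney, fewer cells of a type and less RNA per cell cannot be told apart.

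Of the 10 claudins 9 passed the expression filter, and Cldn14 did not. Between SHR and WKY 2 of 9 were called, Cldn6 and Cldn9, both higher in SHR, against 2.96% of all genes (1.84% higher and 1.12% lower). At an unadjusted p below 0.05 there were 6 of 9, against 19.5% of genes. The libraries of the 2 groups did not overlap for 6 of 9 (Cldn3, Cldn4, Cldn6, Cldn7, Cldn9 and Cldn10), compared with 28.4% of all genes. Between treated and untreated SHR 0 of 9 were called by limma (0.0% of genes); 2 of 9, Cldn8 and Cldn10, had an unadjusted p below 0.05 (15.2% of genes). Only Cldn8 did not overlap there, compared with 19.0% of all genes. Between treated SHR and WKY 8 of 9 were called, against 22.9% of genes, with 5 higher (16.8% of genes) and 3 lower (6.09%). The groups did not overlap for 7 of 9 in that contrast (38.6% of genes), and 8 of 9 had an unadjusted p below 0.05 (40.2% of genes). The median difference of the 9 was 0.38, -0.03 and 0.91 in the 3 contrasts, beside 0.07, 0.04 and 0.11 over all genes tested.

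**Figure D1:**
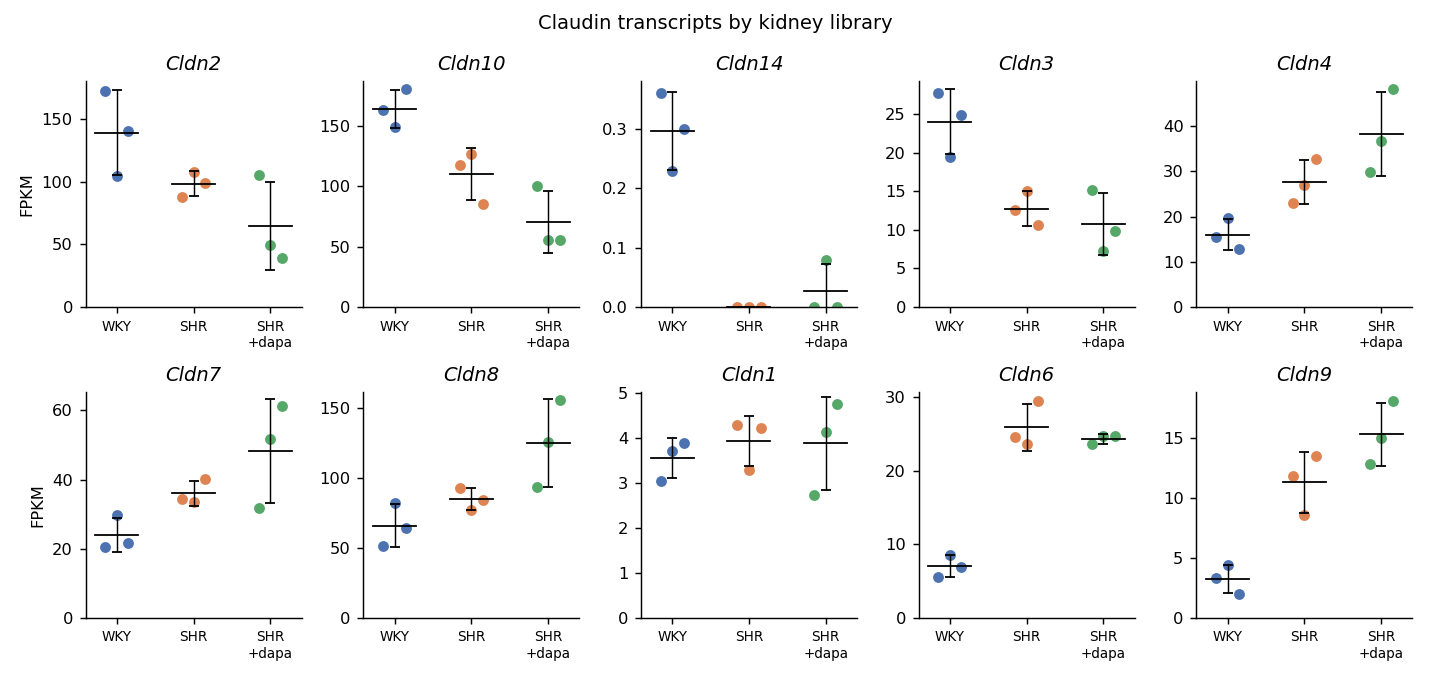
FPKM of the 10 claudins (vertical axes, each from 0) in WKY, SHR and dapagliflozin-treated SHR kidney; points are libraries, the horizontal line is the mean and the bar ±1 SD (n = 3). Cldn6 and Cldn9 step up between WKY and SHR, Cldn2, Cldn3 and Cldn10 are lowest and Cldn4, Cldn7 and Cldn8 highest in treated SHR, and Cldn14 is listed at 0 in all SHR libraries except treated library 2.

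Cldn6, the claudin of immature epithelium, was the member with the clearest strain difference. It measured 5.56, 8.53 and 6.91 FPKM in the WKY libraries, 24.67, 23.59 and 29.57 in SHR, and 23.59, 24.76 and 24.74 in treated SHR. Every SHR library, treated or not, lay above every WKY library, and the treated and untreated SHR libraries overlapped. The mean was 7.0 ± 1.49 FPKM in WKY and 25.9 ± 3.19 in SHR (SD, n = 3 each), a ratio of 3.71. The difference was 1.76 on the log2 scale (SE 0.14, limma adjusted p = 0.000226). Treated SHR differed from SHR by -0.08, with a 95% interval from -0.39 to 0.23 (adjusted p = 0.798). Against WKY, treated SHR was higher by 1.68 (SE 0.14, adjusted p = 0.000311).

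Cldn9, a close relative whose gene lies next to Cldn6, showed the same step at a lower level. It stood at 3.29, 4.36 and 1.99 FPKM in WKY, at 11.79, 8.55 and 13.54 in SHR and at 12.85, 14.98 and 18.06 in treated SHR. All 6 SHR libraries lay above the 3 WKY libraries. The ratio of the SHR mean to the WKY mean was 3.51, and the log2 difference was 1.56 (SE 0.23, adjusted p = 0.00888). The treated libraries overlapped the untreated ones, with a difference of 0.42 (95% interval -0.11 to 0.95, adjusted p = 0.402). Treated SHR exceeded WKY by 1.98 (SE 0.23, adjusted p = 0.00199). Because Cldn6 and Cldn9 are adjacent and related, and whether reads were counted by strand is not given in the sources used here, an exchange of reads between them was not tested.

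Per library, Cldn9 divided by Cldn6 gave 0.592, 0.511 and 0.288 for WKY and 0.478, 0.362 and 0.458 for SHR, so the 2 genes rose by similar factors (log2 difference of the ratio -0.05, exact permutation p = 0.9, two-sided; the smallest p that 3 against 3 allows is 0.1). In treated SHR the ratio was 0.545, 0.605 and 0.730, above every untreated SHR library (difference 0.53, exact permutation p = 0.1). Together Cldn6 and Cldn9 made up 2.31% ± 0.654 of the summed FPKM of the 10 claudins in WKY, 9.10% ± 1.61 in SHR and 9.93% ± 1.01 in treated SHR (SD, n = 3 each).

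The promoter of Cldn6 is shown because it is the member that differed most between the strains, and that of Cldn7 because it holds the most matches to the same motif. RefSeq promoter windows on the GRCr8 build were found for 7 of the 10 claudins, with none matched for Cldn2, Cldn4 and Cldn9. The build is of a reference rat of the Brown Norway strain, so the letters are neither those of WKY nor of SHR. Each run gives the 250 bases before the gene start, 5′ to 3′ on the gene's strand, with matches to CACCTG or its reverse complement CAGGTG in capitals. This E-box is the sequence that the repressors Snail and Zeb are known to bind in epithelial genes.
Cldn6, chr10:13215558-13215807, plus strand: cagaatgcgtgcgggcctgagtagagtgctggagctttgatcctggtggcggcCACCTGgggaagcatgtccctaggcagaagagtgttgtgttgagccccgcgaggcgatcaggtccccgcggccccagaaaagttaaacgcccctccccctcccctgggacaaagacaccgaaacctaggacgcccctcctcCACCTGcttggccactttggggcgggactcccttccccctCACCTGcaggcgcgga
Cldn7, chr10:55188420-55188669, plus strand: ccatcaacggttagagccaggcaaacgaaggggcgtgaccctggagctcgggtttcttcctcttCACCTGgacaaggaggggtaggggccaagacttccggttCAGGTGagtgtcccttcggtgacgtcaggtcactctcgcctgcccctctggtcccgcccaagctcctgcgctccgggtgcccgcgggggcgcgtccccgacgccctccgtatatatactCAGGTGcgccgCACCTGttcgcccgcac

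Cldn6 holds 3 matches, starting 197, 56 and 16 bases before the gene start, and Cldn7 holds 4, at 186, 147, 28 and 17 bases. Of 33469 rat promoter windows of this length 15.9% hold at least 1 match, 0.236% at least 3 and 0.0299% at least 4. Cldn3 and Cldn14 hold 1 each, and Cldn1, Cldn8 and Cldn10 none. Other motifs searched on both strands, AACCNGTT (grainyhead, in 1.76% of windows), TGANTCA (AP-1, 6.34%), TATAAA (12.9%) and the palindromic HNF1 motif (0.00299%), were in none of the 7 windows. A match describes letters and not binding. Snai1, the gene of Snail, measured 1.52 ± 0.469 FPKM in WKY, 1.97 ± 0.205 in SHR and 1.70 ± 1.06 in treated SHR (SD, n = 3 each). Zeb1 measured 5.97 ± 0.435, 5.28 ± 1.66 and 4.87 ± 0.274 FPKM, and Zeb2 3.41 ± 0.861, 2.77 ± 0.688 and 2.2 ± 0.211. All treated libraries lay below all WKY libraries for Zeb1 (difference -0.25, adjusted p = 0.342) and Zeb2 (-0.45, unadjusted p = 0.0336, adjusted p = 0.0959). In that contrast the groups did not overlap, in either direction, for 38.6% of all genes. None of Snai1, Zeb1 and Zeb2 was called in any contrast, and Snai2 was below the filter.

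In RefSeq gene order on chromosome 10, Tnfrsf12a, the receptor of the cytokine TWEAK, lies directly beside Cldn6. It was also higher in SHR, at 41.4 ± 4.20 FPKM against 20.9 ± 1.60 in WKY (SD, n = 3 each; difference 0.95, SE 0.11, adjusted p = 0.00204). Treated SHR stood at 34.5 ± 3.37 and remained above WKY by 0.70 (adjusted p = 0.00612). The next genes on that side, Hcfc1r1 (0.15, adjusted p = 0.340) and Thoc6 (0.05, 0.848), did not pass, nor did Pkmyt1 (0.28, 0.332) and Paqr4 (0.28, 0.440) on the side of Cldn9. Linc00514, next to Cldn9 in the table, was listed at 0 in all WKY and SHR libraries and was not tested. The called genes here were thus a run of 3 neighbours, Tnfrsf12a, Cldn6 and Cldn9, where 2.96% of all genes were called. Whether the genes of this run share a cause was not tested. The nearest 3 genes on each side of the other members were also looked at. Around Cldn1, Cldn2, Cldn7, Cldn8, Cldn10 and Cldn14 no tested neighbour was called for SHR against WKY.

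**Figure D2:**
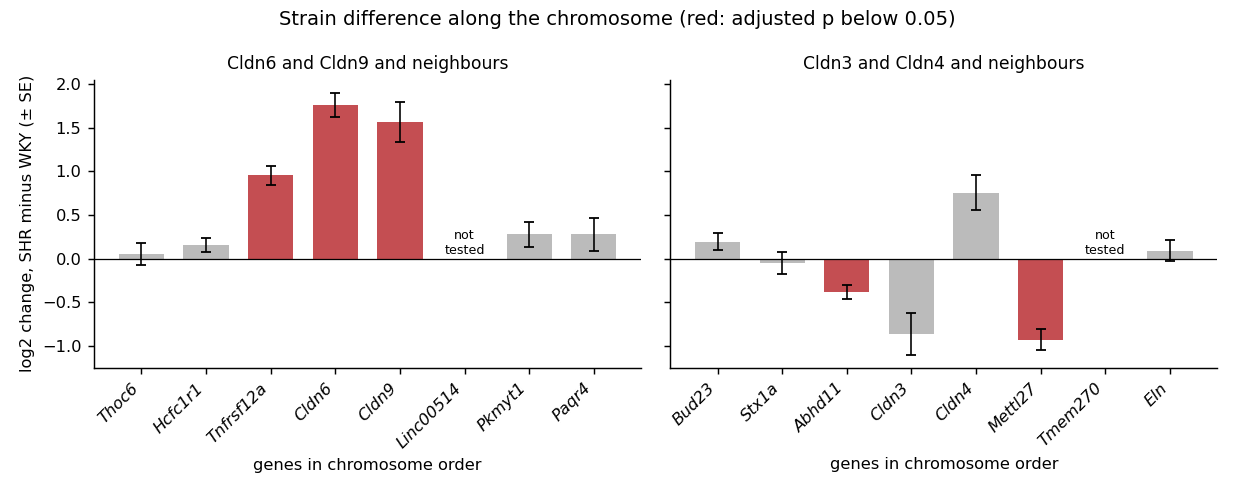
Log2 difference of FPKM + 1 between SHR and WKY (bars start at 0, error bars ±1 SE of the limma fit) for Cldn6 and Cldn9 on the left and Cldn3 and Cldn4 on the right, with 3 genes on either side in RefSeq order; red bars passed an adjusted p of 0.05. On the left Tnfrsf12a, Cldn6 and Cldn9 rise side by side; on the right Abhd11 and Mettl27 are lower around a Cldn3 and Cldn4 pair that lean in opposite directions.

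Among the pore-forming claudins of the leaky segments, Cldn2 measured 172.67, 104.43 and 140.82 FPKM in WKY, 88.22, 108.26 and 98.80 in SHR, and 105.39, 49.76 and 39.47 in treated SHR. The WKY and SHR libraries overlapped, and treated library 1 lay among the SHR libraries while the other 2 treated libraries were below every other library. The SHR mean of 98.4 ± 10.0 differed from the WKY mean of 139 ± 34.1 by -0.47 on the log2 scale (SE 0.33, adjusted p = 0.445). The treated mean of 64.9 ± 35.5 differed from SHR by -0.72 (95% interval -1.46 to 0.02, adjusted p = 0.338). Against WKY it was lower by 1.19 (log2 difference -1.19, SE 0.33, adjusted p = 0.0341), with treated library 1 just inside the WKY range. That call was lost without any single library except WKY 2 and treated 1, with adjusted p between 0.0516 and 0.113, and also without the filter (0.0665) or with only these groups fitted (0.0819).

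Cldn10, whose value pools the isoforms of proximal tubule and thick limb, was the most abundant claudin in WKY, at 162.76, 148.93 and 180.07 FPKM. It stood at 117.58, 126.82 and 85.38 in SHR and at 100.09, 55.23 and 55.62 in treated SHR. No SHR library reached the WKY range, and treated library 1 again lay among the SHR libraries. The difference between SHR and WKY was -0.59 (SE 0.24, adjusted p = 0.222), and between treated and untreated SHR -0.67 (95% interval -1.21 to -0.14, unadjusted p = 0.0191, adjusted p = 0.286). Cldn10 fell by 1.26 from WKY to treated SHR, from 164 ± 15.6 to 70.3 ± 25.8 FPKM (SE 0.24, adjusted p = 0.0116); without WKY library 3 the adjusted p was 0.0541. Without treated library 1, both pore claudins were called between treated and untreated SHR, Cldn2 at -1.13 (adjusted p = 0.0314) and Cldn10 at -0.96 (adjusted p = 0.0294). In that setting 830 genes were called, against 0 with all libraries.

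The ratio of Cldn2 to Cldn10 stayed near 1, at 1.06, 0.701 and 0.782 in WKY, 0.750, 0.854 and 1.16 in SHR and 1.05, 0.901 and 0.710 under treatment. The groups overlapped in every contrast (exact permutation p = 0.6, 0.8 and 0.8). Cldn14, the opponent of Cldn16 in the thick limb, was listed at 0.36, 0.23 and 0.30 FPKM in WKY, at 0 in all 3 SHR libraries and at 0, 0.08 and 0 in treated SHR. These values lie below the filter and carry no fold change. No SHR library reached the lowest WKY value, in either SHR group; of the 6240 genes below the filter, 11.2% did not overlap between SHR and WKY and 12.9% between treated SHR and WKY. When the filter was dropped, Cldn14 was called in both contrasts (adjusted p = 0.00820 and 0.00887). Of its neighbours, Chaf1b, a histone chaperone subunit, was also below the filter, at means of 0.843, 0.483 and 0.457 FPKM in WKY, SHR and treated SHR. Morc3 and Sim2 on either side were called in no contrast. Hlcs, beyond Sim2, was called only for treated SHR against WKY (0.55, adjusted p = 0.0169), where 22.9% of all genes were called. Casr, the calcium-sensing receptor, measured 30.6 ± 4.86, 28.1 ± 3.29 and 31.6 ± 6.50 FPKM and was called in no contrast.

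The claudins of the tight distal segments leaned the other way, except Cldn3. Cldn8, which recruits Cldn4, measured 51.27, 81.98 and 64.32 FPKM in WKY, 92.38, 76.81 and 84.39 in SHR and 93.29, 125.65 and 155.75 in treated SHR. The treated libraries lay above all the others, treated library 1 by a small margin, while WKY and SHR overlapped. The difference was 0.38 between SHR and WKY (SE 0.21, adjusted p = 0.345) and 0.53 between treated and untreated SHR (95% interval 0.06 to 1.0, unadjusted p = 0.0315, adjusted p = 0.298). Between treated SHR (125 ± 31.2 FPKM) and WKY (65.9 ± 15.4) it was 0.91 (SE 0.21, adjusted p = 0.0200).

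Cldn4, the partner of Cldn8, stood at 15.52, 19.63 and 12.81 FPKM in WKY, 23.04, 27.04 and 32.68 in SHR, and 29.80, 36.62 and 48.15 in treated SHR. Every SHR library was above every WKY library, and treated library 1 lay within the SHR range. SHR differed from WKY by 0.76 (SE 0.21, adjusted p = 0.0989) and treated from untreated SHR by 0.44 (95% interval -0.02 to 0.91, adjusted p = 0.345). Cldn4 rose by 1.20 from WKY to treated SHR (SE 0.21, adjusted p = 0.00920), a ratio of means of 2.39. This call held with each library left out in turn, as did those of Cldn6 and Cldn9.

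Cldn7, a basolateral and junctional claudin of the collecting duct, measured 20.38, 29.72 and 21.73 FPKM in WKY, 34.34, 33.46 and 40.16 in SHR and 31.81, 51.72 and 61.15 in treated SHR. The SHR libraries lay above WKY, and treated library 1 lay just below the SHR range while the other 2 were above it. The differences were 0.58 for SHR against WKY (SE 0.23, adjusted p = 0.215), 0.37 for treated against untreated SHR (95% interval -0.15 to 0.89, adjusted p = 0.447) and 0.95 for treated SHR against WKY (SE 0.23, adjusted p = 0.0234). The calls of Cldn7 and Cldn8 against WKY were each lost without WKY library 1 or 3 or treated library 2 or 3, with adjusted p from 0.0615 to 0.0838, and when only these groups were fitted (0.0630 and 0.0573).

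Cldn3, a barrier-forming claudin, was the exception among the distal members. Its WKY libraries held 27.67, 19.48 and 24.89 FPKM, its SHR libraries 12.54, 15.07 and 10.65, and its treated libraries 15.12, 7.21 and 9.81. All SHR libraries lay below WKY, and treated and untreated SHR overlapped. The mean was 24.0 ± 4.16 in WKY and 12.8 ± 2.22 in SHR (difference -0.86, SE 0.24, adjusted p = 0.105); the value was called when only those groups were fitted (adjusted p = 0.0350) or without treated library 1 (0.0313). Treated SHR, at 10.7 ± 4.03, differed from SHR by -0.28 (95% interval -0.82 to 0.27, adjusted p = 0.591). Cldn3 fell by 1.14 from WKY to treated SHR (SE 0.24, adjusted p = 0.0165), a call lost without WKY library 1 (adjusted p = 0.0611), WKY library 3 (0.0642) or treated library 3 (0.0557).

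Cldn3 and Cldn4 lie side by side on chromosome 12, yet their levels leaned in opposite directions. Cldn4 divided by Cldn3 gave 0.561, 1.01 and 0.515 for WKY, 1.84, 1.79 and 3.07 for SHR and 1.97, 5.08 and 4.91 for treated SHR. SHR did not overlap WKY (log2 difference of the ratio 1.71, exact permutation p = 0.1, the smallest that 3 against 3 allows), and treated SHR overlapped SHR (0.76, exact permutation p = 0.2). On either side of the pair, Mettl27, a predicted methyltransferase, fell from 24.7 ± 1.69 FPKM in WKY to 12.5 ± 0.866 in SHR (difference -0.93, SE 0.12, adjusted p = 0.00524), and stood at a mean of 15.2 in treated SHR. Abhd11, a mitochondrial hydrolase next to Cldn3, fell from a mean of 42.8 to 32.6 (-0.38, SE 0.08, adjusted p = 0.0448). Farther out, Stx1a (-0.05, adjusted p = 0.851), Bud23 (0.19, 0.309) and Eln (0.09, 0.703) were not called. The share called among all genes was 2.96%. The Cldn3 promoter is shown because Cldn3 and Cldn4 leaned in opposite directions and no window was matched for Cldn4. The single match in the Cldn3 window, again CACCTG in capitals, starts 248 bases before the gene start.
Cldn3, chr12:27346548-27346797, minus strand: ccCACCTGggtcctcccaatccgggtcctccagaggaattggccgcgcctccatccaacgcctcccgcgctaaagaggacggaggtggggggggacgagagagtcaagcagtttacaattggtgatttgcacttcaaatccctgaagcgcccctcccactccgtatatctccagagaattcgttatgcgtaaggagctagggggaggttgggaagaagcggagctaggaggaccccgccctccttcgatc

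Cldn1, of the parietal epithelium, measured 3.04, 3.70 and 3.89 FPKM in WKY, 4.28, 3.29 and 4.21 in SHR and 2.73, 4.13 and 4.76 under treatment. All groups overlapped. The differences were 0.12, -0.03 and 0.08 in the 3 contrasts (SE 0.17 each; adjusted p = 0.729, 0.943 and 0.745), and the last changed sign under quantile normalization (-0.04). Its 95% interval for SHR against WKY ran from -0.28 to 0.51. The parietal epithelium list, of which 6 of 7 genes including Cldn1 itself were kept, had 0 members called by limma in each of the 3 contrasts (0, 1 and 1 at an unadjusted p below 0.05). Of all genes 2.96%, 0.0% and 22.9% were called, and 19.5%, 15.2% and 40.2% had an unadjusted p below 0.05.

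**Figure D3:**
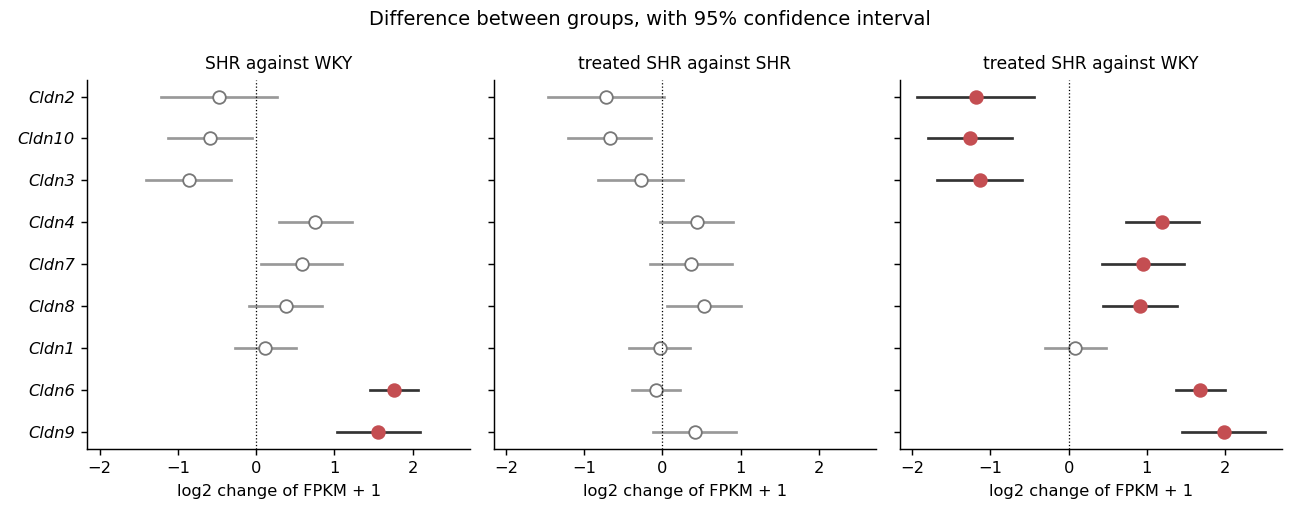
Difference between groups in log2 of FPKM + 1 (horizontal axes) for the 9 claudins that passed the filter, in the 3 contrasts; points are limma estimates, lines 95% confidence intervals, filled red points an adjusted p below 0.05. Only Cldn6 and Cldn9 are filled for SHR against WKY, none for treated against untreated SHR, and all except Cldn1 for treated SHR against WKY.

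The order of levels changed between the groups. In WKY Cldn10 and Cldn2 came first and overlapped each other, followed by Cldn8, then by Cldn3 and Cldn7, which overlapped, Cldn4, Cldn6, and last Cldn1 and Cldn9, which overlapped. Cldn4 overlapped Cldn3 but not Cldn7. In SHR Cldn10, Cldn2 and Cldn8 overlapped in turn at means of 110, 98.4 and 84.5 FPKM, followed by Cldn7, by Cldn4 and Cldn6 (27.6 and 25.9, overlapping), by Cldn3 and Cldn9 (12.8 and 11.3, overlapping) and by Cldn1. Cldn6 thus ranked below Cldn3 in all WKY libraries and above it in all SHR libraries. In treated SHR Cldn8 had the highest mean, 125 FPKM; Cldn10 (70.3) overlapped it through treated library 1, and Cldn2 (64.9), Cldn7 (48.2) and Cldn4 (38.2) overlapped their neighbours in the order. Cldn6 (24.4) lay below every Cldn4 value, Cldn9 (15.3) and Cldn3 (10.7) overlapped, and Cldn1 (3.87) was last.

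The sum over the 10 claudins was 447 ± 22.7, 410 ± 11.8 and 401 ± 26.6 FPKM in WKY, SHR and treated SHR (SD, n = 3 each), and its make-up differed between the groups. Cldn2 and Cldn10 together held 72.5%, 60.2% and 70.1% of the sum in the WKY libraries, 50.3%, 55.6% and 46.1% in SHR and 49.6%, 28.4% and 22.8% in treated SHR. Cldn4, Cldn7 and Cldn8 held 23.9% ± 6.48, 36.2% ± 3.47 and 52.9% ± 13.7 (SD, n = 3 each). SHR did not overlap WKY in either share, and treated library 1 lay within the SHR range in both. Cldn3 held 5.35%, 3.10% and 2.65% on average. The ratio of Cldn8 to Cldn10 was below 1 in all WKY libraries (0.315, 0.550 and 0.357) and in all SHR libraries (0.786, 0.606 and 0.988), at 0.932 in treated library 1, and at 2.28 and 2.80 in the other treated libraries. Within the distal trio the proportions differed less: the ratio of Cldn7 to Cldn8 lay between 0.338 and 0.476 over all 9 libraries, and those of Cldn7 to Cldn8 and of Cldn8 to Cldn4 overlapped between groups in every contrast.

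**Figure D4:**
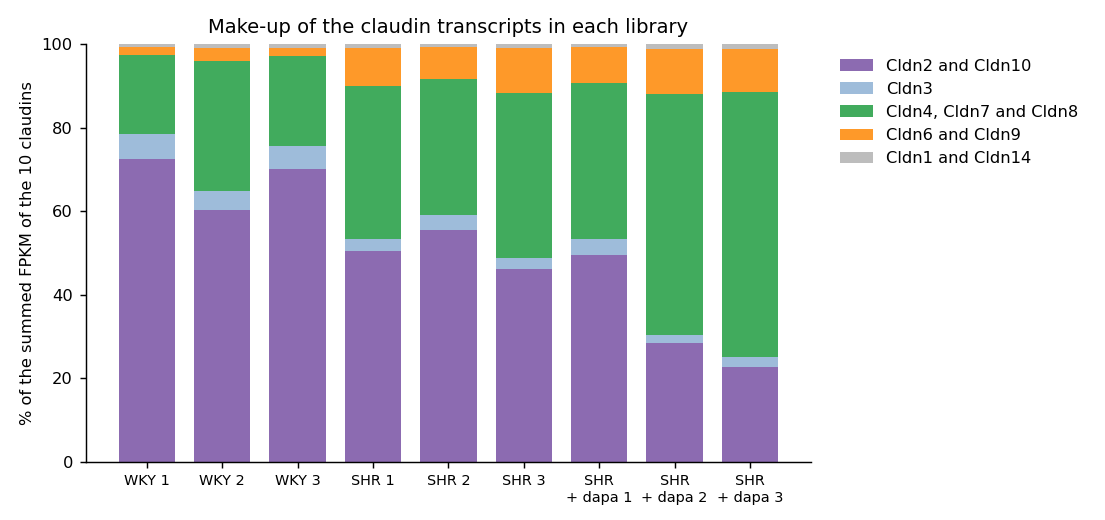
Share of the summed FPKM of the 10 claudins (vertical axis, percent) held by 5 sets of members, in stacked bars for the 9 libraries. The share of Cldn2 and Cldn10 runs from 72.5% in WKY library 1 to 22.8% in treated library 3, and treated library 1 (49.6%) resembles the SHR libraries.

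The claudins were set beside marker genes of the segments in which they are known, except that Cldn1 was set beside podocyte markers. The collecting duct list (12 genes, among them the water channels Aqp2 and Aqp3) had mean log2 levels of 4.92 to 5.60 in WKY, 5.74 to 6.13 in SHR and 6.26 to 7.04 in treated SHR, without overlap between groups. Its members called were 2 of 12 for SHR against WKY, both higher (1.84% of all genes), and 11 for treated SHR against WKY, all higher (16.8%). For treated against untreated SHR 0 were called (0.0% of genes), with 9 at an unadjusted p below 0.05 (15.2% of genes). The intercalated cell list ran from 6.02 to 6.44, 6.63 to 7.23 and 7.10 to 7.87. For treated SHR against WKY 10 of 10 were called higher (16.8% of genes). In SHR against WKY and in treated against untreated SHR 0 of 10 were called (2.96% and 0.0% of genes). At an unadjusted p below 0.05 there were 8 and 9 of 10 in these contrasts (19.5% and 15.2% of genes), and all 10 had a higher mean in both. The proximal tubule list (14 genes, with Slc34a1 and Slc5a2) ran from 7.22 to 7.41 in WKY, 6.81 to 7.15 in SHR and 5.84 to 6.52 in treated SHR. For treated SHR against WKY 3 of 14 were called lower (6.09% of genes), and 0 of 14 were called in the other contrasts (2.96% and 0.0% of genes). For SHR against WKY 1 of 14 had an unadjusted p below 0.05 (19.5% of genes), and 5 of 14 had a higher mean in SHR. Between treated and untreated SHR 4 of 14 had an unadjusted p below 0.05 (15.2% of genes), and all 14 had a lower mean in treated SHR. The thick limb list, without its claudins, overlapped throughout (6.13 to 6.59, 6.25 to 6.93 and 6.29 to 6.72). Aqp2 measured 190.79 to 384.55 FPKM in WKY, 447.80 to 519.19 in SHR and 626.01 to 1168.45 in treated SHR. Aqp3 ranged from 36.56 to 59.80, 134.89 to 136.83 and 159.48 to 275.92 in the same order. Slc34a1, the proximal phosphate carrier, ranged from 1176.96 to 1666.20 in WKY, 1538.92 to 1834.85 in SHR and 834.95 to 1343.91 in treated SHR, and Slc5a2, which encodes SGLT2, from 9.75 to 70.25, 2.69 to 42.88 and 0.63 to 20.77. In the thick limb Umod ranged from 2109.32 to 3267.72, 2107.33 to 4616.32 and 1332.47 to 2741.35, and Slc12a1 from 232.10 to 341.63, 167.24 to 362.89 and 103.66 to 204.34. Slc12a3 of the distal convoluted tubule ranged from 260.71 to 518.15, 374.96 to 469.55 and 473.39 to 836.95. In the list of that segment 6 of 7 were called higher for treated SHR against WKY (16.8% of genes). Between treated and untreated SHR 0 of 7 were called (0.0%), with 6 at an unadjusted p below 0.05 (15.2%). Of the podocyte list 2 of 10 were called higher for treated SHR against WKY (16.8%). For SHR against WKY 0 of 10 were called (2.96%), 6 had an unadjusted p below 0.05 (19.5%) and 10 a higher mean. Urothelial genes were near absent, with 1 of 9 kept and a summed FPKM of 1.21 to 3.89.

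Over the 9 libraries, Cldn8, Cldn4 and Cldn7 followed the collecting duct list closely. Cldn8 gave r = 0.964 (exact permutation p = 0.000102, adjusted over 7 relations 0.000395) and rho = 0.967 (exact permutation p = 0.000165); without the 2 libraries farthest from the median r was 0.904, and with group means removed 0.892. Cldn4 gave r = 0.959 (adjusted exact p = 0.000395, rho = 0.95, within groups 0.857) and Cldn7 r = 0.959 (adjusted exact p = 0.000508, rho = 0.90, within groups 0.936). Cldn3 ran against the same list, at r = -0.889 (exact permutation p = 0.00179, adjusted 0.00284), rho = -0.883, -0.891 without the 2 farthest libraries and -0.696 within groups. The libraries of the 3 groups are ordered along that list, so a pooled r also carries the group differences.

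Cldn2 followed the proximal tubule list at r = 0.862 (exact permutation p = 0.00203, adjusted 0.00284) and rho = 0.733 (exact permutation p = 0.0311); without treated libraries 2 and 3 r was 0.518, so the relation rests in part on those libraries, and within groups it was 0.603. Cldn10 showed no relation to the thick limb list (r = 0.00343, exact permutation p = 0.993). Cldn1 was paired with the podocyte list because there was no list exclusive to parietal cells. It gave r = 0.664 (adjusted exact p = 0.0577) and rho = 0.783 (adjusted exact p = 0.0241), with r = 0.394 without the 2 farthest libraries and 0.754 within groups. Pairing Cldn10 and Cldn3 with the proximal list was chosen after the data were seen, in a family of 18 relations. In it Cldn10 gave r = 0.893 (adjusted exact p = 0.00162, rho = 0.90, 0.814 without the 2 farthest libraries, 0.564 within groups). Cldn3 gave r = 0.731 (adjusted exact p = 0.0289, rho = 0.85, 0.647 and 0.275). With the collecting duct list Cldn2 gave r = -0.928 (-0.813 without the 2 farthest libraries, -0.841 within groups), larger in size than with its own list. Cldn10 gave r = -0.950 with the collecting duct list, and Cldn9, which has no assigned segment, r = 0.894 (rho = 0.967). A close relation to a list is therefore not particular to the claudins of that segment. Cldn6 was tied less closely to either list than Cldn8 by value, at r = 0.793 with the collecting duct list (adjusted exact p = 0.0142) and -0.644 with the proximal list (adjusted exact p = 0.0533); this difference between genes was not tested.

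**Figure D5:**
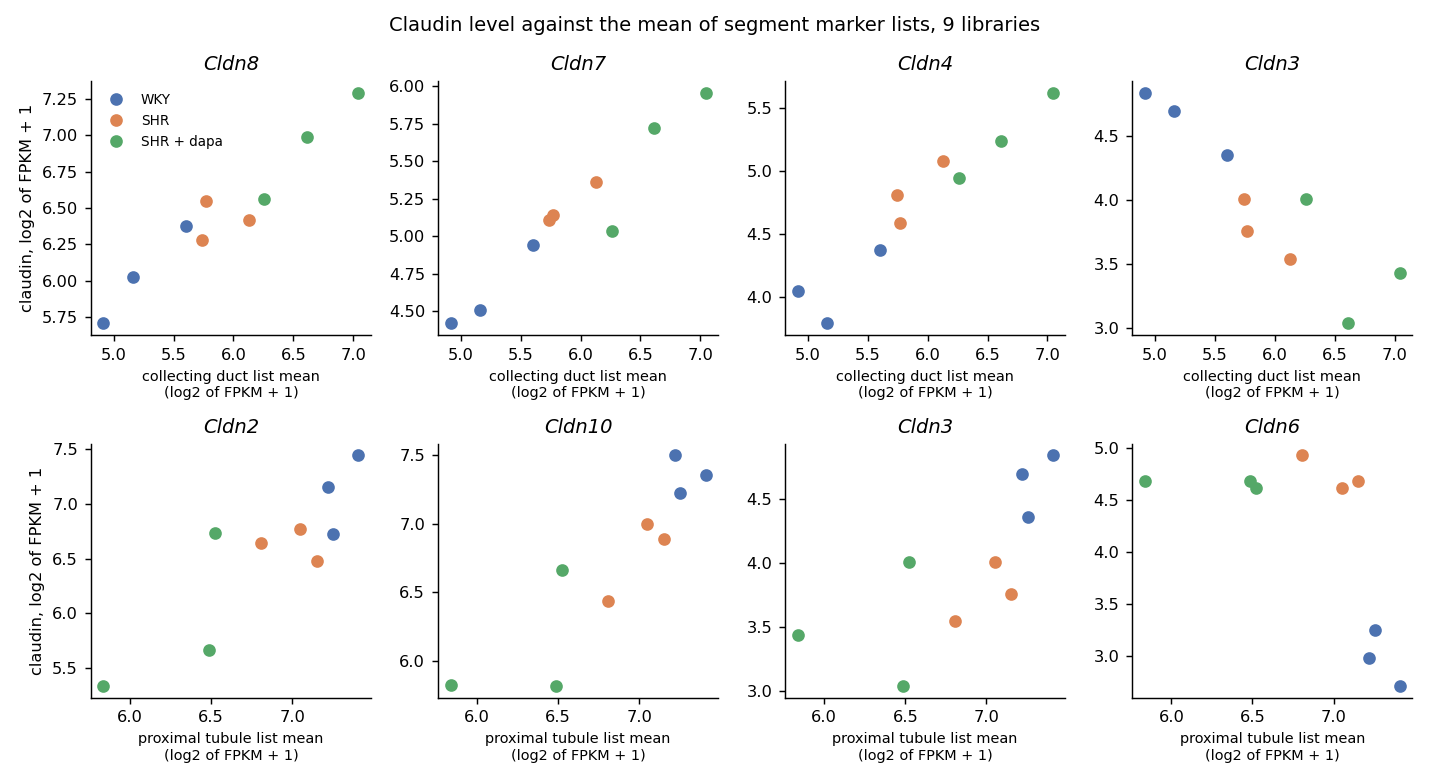
Claudin level (vertical axes) against the mean of a segment list (horizontal axes), both in log2 of FPKM + 1; each point is a library, coloured by group. Cldn8, Cldn7 and Cldn4 climb with the collecting duct list and Cldn3 declines; with the proximal list Cldn2, Cldn10 and Cldn3 climb, and Cldn6 puts the WKY libraries apart from all SHR libraries.

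Relative to the mean of the collecting duct list, no distal claudin had a higher mean in treated SHR than in WKY. The log2 level of Cldn8 minus the collecting duct mean was 0.812 ± 0.0528 in WKY, 0.533 ± 0.244 in SHR and 0.306 ± 0.0604 in treated SHR (SD, n = 3 each), that of Cldn4 was -1.16 ± 0.259, -1.06 ± 0.126 and -1.37 ± 0.0553, and that of Cldn7 -0.603 ± 0.0922, -0.676 ± 0.0784 and -1.07 ± 0.165. Cldn3 dropped away from the list, from -0.595 ± 0.597 to -2.11 ± 0.435 and -3.14 ± 0.777. Cldn2 minus the proximal list overlapped between all groups, at -0.190 ± 0.301, -0.373 ± 0.267 and -0.369 ± 0.526. Cldn10 minus the thick limb list was 0.987 ± 0.215, 0.140 ± 0.0603 and -0.405 ± 0.533.

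An alternative fit added a covariate, the mean of the collecting duct, thick limb and intercalated cell lists minus that of the proximal tubule list. The distal convoluted tubule list was not part of it. That covariate lay between -1.28 and -0.658 in WKY, -0.321 and 0.174 in SHR and 0.538 and 1.82 in treated SHR, so segment make-up and group cannot be told apart by it. In that fit Cldn6 was still called between SHR and WKY (adjusted p = 0.00387), Cldn9 differed by 1.29 without a call (adjusted p = 0.115), and 0 of 9 claudins were called between treated SHR and WKY by limma, where 28 genes of all were called and 641 had an unadjusted p below 0.05. The values of Cldn2, Cldn7 and Cldn8 for treated SHR against WKY became 0.32, -0.19 and -0.08, each with the opposite sign to the fit without the covariate.

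Of 14 other claudin-family genes measured, 10 were kept. Between SHR and WKY 0 of 10 were called by limma (2.96% of genes). At an unadjusted p below 0.05 there were 4 of 10, Cldn5, Cldn12, Cldn15 and Cldn23 (19.5% of genes). Between treated and untreated SHR 0 of 10 were called (0.0% of genes), and 0 of 10 had an unadjusted p below 0.05 (15.2% of genes). Between treated SHR and WKY 4 of 10 were called (22.9% of genes), 3 of them higher (16.8% of genes) and 1 lower (6.09%). Endothelial Cldn5 rose by 1.29 (adjusted p = 0.0185), Cldn15, a cation pore best known from intestine, by 1.04 (0.0155) and Cldn12 by 0.26 (0.0452), the last not called under either other scaling. Cldn23 fell by 1.16 (adjusted p = 0.0338), from a mean of 2.79 to 0.720 FPKM. Cldn16, which lies beside Cldn1, measured 29.7 ± 7.49, 22.7 ± 3.04 and 21.8 ± 5.48 FPKM, and its partner Cldn19 36.2 ± 5.80, 43.9 ± 6.88 and 33.8 ± 6.89; neither was called in any contrast. Cldn17, Cldn20, Cldn22 and Cldnd1 were not called either.

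The other tight junction proteins, 33 measured and kept of 36 listed, include the scaffolds to which claudins bind. Between SHR and WKY 1 of 33 was called (2.96% of genes), the multi-domain scaffold Mpdz, at 3.44, 3.90 and 3.51 FPKM in WKY and 5.97, 5.90 and 5.76 in SHR (0.58, SE 0.10, adjusted p = 0.0177); it was not called under quantile normalization or without any single library of these groups other than WKY 2. In treated against untreated SHR 0 of 33 were called by limma, with 8 at an unadjusted p below 0.05 (15.2% of genes). Against WKY treated SHR had 10 of 33 higher and 0 lower, beside 16.8% and 6.09% of all genes. The smallest p-values belonged to the scaffold Tjp3 (0.87, adjusted p = 0.0109), the junctional adhesion molecule F11r (0.66, 0.0113), the polarity kinase Prkcz (0.82, 0.0155) and the tricellular protein Ildr1 (0.85, 0.0170). Without WKY library 3 the count was 0, while genes called over the whole contrast fell from 3010 to 593. Ocln, the strand protein occludin, measured 27.8 ± 3.37, 22.9 ± 3.67 and 26.3 ± 3.21 FPKM, and Ocln and Tjp1 were called in no contrast.

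Of 29 listed regulators of claudins 26 were kept. By limma 0 of 26 were called between SHR and WKY or between treated and untreated SHR, with 9 in each at an unadjusted p below 0.05 (19.5% and 15.2% of genes). Between treated SHR and WKY 12 of 26 were higher and 1 lower, beside 16.8% and 6.09% of all genes. The smallest p-values were those of the mineralocorticoid receptor Nr3c2 (1.03, adjusted p = 0.00601), the protease St14 (0.91, 0.00669) and the epithelial transcription factors Elf3 (0.86, 0.00828) and Tfcp2l1 (0.98, 0.0119), the last of which directs collecting duct identity. The kinase Wnk4, which acts on claudin phosphorylation, rose by 0.86 (adjusted p = 0.0220), from 59.2 ± 11.7 to 110 ± 30.3 FPKM. Klhl3, the ubiquitin ligase adaptor for which Cldn8 is a known target, rose by 1.45 (adjusted p = 0.0219), and the grainyhead factor Grhl2, a known activator of Cldn4, by 0.62 (0.0312). Prss8 fell by 0.58 (adjusted p = 0.0333). The count was 3 without WKY library 3, where 593 genes of all were called, against 3010 with all libraries. Several of the named regulators are themselves distal or collecting duct genes.

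Genes whose log2 level followed each claudin most closely were searched among genes with a mean of at least 5 FPKM; r over 9 libraries is a description, and all genes share the libraries and their group differences. Cldn2 was closest to Tmem174 (r = 0.996), B3galt5 and Aldh6a1, and Cldn10 to Ceacam1 (0.984), Pllp and Gng13. Cldn3 was closest to the brush border protocadherin Cdhr5 (0.981), Lrrc8e and Ugp2. Cldn4 was closest to Zcchc3 (0.995), the intercalated cell proton pump subunit Atp6v1g3 (0.989) and Pycr3, Cldn7 to Ptk7 (0.993), Prrc2a and Prr12, and Cldn8 to Nipsnap2 (0.997), Arhgef10 and Sorbs2. Cldn6 was closest to Jpt1 (0.986) and to the histocompatibility genes RT1-A1 (0.985) and RT1-CE2, whose near-identical copies make their values uncertain. Cldn9 was closest to Pf4 (0.988), Tbrg4 and Prr35, and Cldn1 to Uimc1, at a lower r of 0.947. Between members, Cldn2 and Cldn8 gave r = -0.977, Cldn4 and Cldn7 0.950 and Cldn6 and Cldn9 0.938.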

How the data were processed

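Total RNA from rat kidney was sequenced in 9 libraries with a BGISEQ-500 instrument, which gave single-end reads of 50 bases, per the labels' protocols. The submitters' processing notes name HISAT2 2.0.4, Bowtie2 2.2.5 and the rat build Rnor_6.0, without their roles; for the annotation, the program behind the values, any use of strand and any filter, the answer is not given in the sources used here. The authors deposited FPKM values, 1 column per library, as the headers name them. FPKM is relative within a library, so a large change in abundant transcripts moves all the others, and related genes can exchange reads.

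Values were analysed as log2(FPKM + 1), so fold changes are on the log2(value + pseudocount) scale and understate changes of low genes. Genes with at least 1 FPKM in at least 3 of 9 libraries were kept, 13127 of 19367. One group-means model of all libraries (6 residual degrees of freedom) was fitted with limma 3.58.1 in R 4.3.3, with a variance prior that follows intensity and two-sided tests, Benjamini-Hochberg adjusted over all kept genes. Exact permutation tests over libraries used Python 3.11.15 with scipy 1.17.1; correlations enumerated 362880 orders. On simulated data with 100 genes changed by a log2 difference of 1 and 100 by 2 among 13127 genes, the fit recovered 75 and 97 for SHR against WKY, 80 and 94 for treated against untreated SHR, and 86 and 99 for treated SHR against WKY, with 8, 7 and 14 false calls. The noise was normal and independent between genes and libraries, and only genes with a mean log2 level above 2 were changed. Real libraries in which many genes vary together were not simulated, so these numbers do not give the power of the real contrasts.

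Members, gene lists and tests were chosen with earlier results of these data known. Named were all members, other claudins that passed the filter, up to 4 called genes of the junction and regulator lists per contrast with a fixed set of others (Ocln, Tjp1, Tjp3, Wnk4, Klhl3, Casr, Grhl2), a fixed set of segment genes (Slc5a2, Slc34a1, Umod, Slc12a1, Slc12a3, Aqp2, Aqp3), and the 3 genes most correlated with each member among those with a mean of at least 5 FPKM. A few genes of these fixed sets are not reported here. Neighbouring genes, shares, ratios, promoter motifs and the 18 list relations were added after the values were seen, and so were Prss8, Snai1, Snai2, Zeb1 and Zeb2 as named genes. RefSeq gene order and promoters are from GRCr8, another build than the authors', and were used for names, order and reference sequence only; 17897 gene IDs matched, 16411 with the same symbol. Reads of either strain were placed on a build that is of neither strain. Alternatives covered the pseudocount (0.1 and 0.5), the filter, quantile and median-of-ratios scaling, fits of only the groups compared, no variance trend, a replicate block, a segment covariate and leaving out each library.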

Additional observations from a re-analysis of the deposited data

How the results depend on the processing

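The counts of claudins called, 2, 0 and 8 in the 3 contrasts (SHR against WKY, treated against untreated SHR, treated SHR against WKY), were the same with pseudocounts of 0.1 and 0.5, under both scalings and without the variance trend. Without the low-value filter 3 claudins were called for SHR against WKY, the third being Cldn14, and with only the 2 groups compared also 3, the third being Cldn3. For treated SHR against WKY, fitting only the 2 groups gave 5 claudins, 2 junction proteins (10 with all groups) and 7 regulators (13). Over all genes the calls in that contrast were 1026, against 3010 with all groups. For SHR against WKY it gave 2 regulators (0 with all groups) and 508 genes of all (388). With the segment covariate the claudins called were 1 for SHR against WKY and 0 for treated SHR against WKY, beside 141 and 28 genes of all. Junction proteins fell to 0 in both contrasts. Regulators fell to 0 for treated SHR against WKY and stayed at 0 for SHR against WKY. Quantile normalization also left 0 junction proteins for SHR against WKY. The cause was not tested.

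The signs that turned under the covariate were Cldn1 (-0.18 for SHR against WKY, -0.62 for treated SHR against WKY), Cldn2 (0.16, 0.16 and 0.32 in the 3 contrasts), Cldn3 (0.0766), Cldn4 (-0.13) and Cldn7 (-0.29) for treated against untreated SHR, Cldn7 (-0.19) for treated SHR against WKY, and Cldn8 (-0.0345, -0.0421 and -0.0765). Cldn1 for treated SHR against WKY also turned under quantile (-0.0361) and median-of-ratios scaling (-0.0265). Leaving out 1 library at a time, where a group of 2 is left the spread is pooled, the claudins called ranged from 2 to 3, 0 to 2 and 3 to 8, junction proteins from 0 to 1, 0 to 3 and 0 to 11, and regulators from 0 to 3, 0 to 6 and 3 to 18. Claudins called for treated SHR against WKY were 3 without WKY library 3, 4 without WKY library 1 or treated library 3, and 5 without treated library 2. Genes called over the whole contrast fell as well, from 3010 with all libraries. They numbered 593 without WKY library 3, 806 without WKY library 1, 945 without treated library 3 and 1076 without treated library 2. Without treated library 1, 2 claudins, 3 junction proteins and 6 regulators were called against untreated SHR, beside 830 genes of all. For treated SHR against WKY, junction proteins numbered 2, 0, 3 and 4 and regulators 6, 3, 6 and 6 without WKY library 1, WKY library 3, treated library 2 and treated library 3. For SHR against WKY, 3 regulators were called without treated library 1 and 2 without treated library 3. In those 2 fits 626 and 448 genes of all were called for SHR against WKY, against 388 with all libraries. Relations to segment lists past an adjusted p of 0.05 numbered 5 of 7, and 5 to 6 with a library left out. Leaving out 1 library turned Cldn1 (-0.165 to 0.148 for treated against untreated SHR, -0.0499 to 0.264 for treated SHR against WKY) and Cldn6 (-0.144 to 0.0133 for treated against untreated SHR).

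Replicate numbers were not taken to pair the samples. Deviations of same-numbered libraries correlated at -0.328 to 0.456 in 9 pairs, 3 of them above 0.1. Those of differently numbered libraries correlated at -0.532 to 0.327, so these values do not settle whether the numbers pair the samples. With the replicate number as a block the claudins called were again 2, 0 and 8, junction proteins 1, 0 and 8 and regulators 0, 0 and 13, while genes called overall were 282, 1 and 2700 against 388, 0 and 3010. With 3 libraries a group and no read totals, small differences in weakly expressed members such as Cldn1 and Cldn14 could not be resolved.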
